A study of Mus musculus with 2 samples.

Results

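Akr1c18, Cyp1a1 and Ahr are 3 of the 480 genes of an in situ hybridisation panel that was read in mouse skin. Akr1c18 was chosen by its level: of all genes it was the one most raised in Utx-cKO over WT epithelium in these data, so that difference is described here and supports nothing else. Cyp1a1 and Ahr were taken with it as a target gene and a receptor of the same signalling pathway. The data were Xenium measurements, in which each decoded transcript keeps its position, in 5 µm sections of fixed, paraffin-embedded whole skin from B6/129 females. 1 section was labelled WT control. The other was labelled Utx-cKO: Kdm6a, the gene that encodes the histone demethylase UTX, was deleted by Cre recombinase driven by the keratin 14 promoter, so the deletion is directed to keratin 14-expressing epithelium and its descendants, sebocytes included, and not to the dermis. Neither section had a treatment named in the labels, and the labels give neither the ages and body sites nor the number of animals. With 1 section per group, section and genotype cannot be told apart and no test was possible. The 95% intervals given throughout are exact and cover counting error only.

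AHR, the aryl hydrocarbon receptor, is a transcription factor that is held in the cytoplasm until a ligand binds it. It then enters the nucleus, pairs with ARNT and binds xenobiotic response elements in its target genes. Cyp1a1 is the classical target: it encodes a monooxygenase that oxidises many AHR ligands. In skin, the receptor is known for its part in keratinocyte differentiation, in the response to pollutants and tryptophan products, and in the upkeep of T cells that live in the epidermis. Akr1c18 encodes an aldo-keto reductase, the 20α-hydroxysteroid dehydrogenase that inactivates progesterone. The labels do not say whether the Akr1c18 probe separates it from the other Akr1c genes.

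The promoters of both enzymes are shown because Cyp1a1 is induced through AHR binding at elements upstream of the gene. Each runs from 250 bases before to 50 bases after the start site in RefSeq, build GRCm38.p6, and the lines are written 5′ to 3′ on the gene's strand. Akr1c18 lies on the minus strand at chr13:4150597-4150896 and Cyp1a1 on the plus strand at chr9:57697363-57697662. Capitals mark GCGTG, the core of the xenobiotic response element, and TATAA. Of the 3 genes, 2 had an entry in the promoter table.
Akr1c18: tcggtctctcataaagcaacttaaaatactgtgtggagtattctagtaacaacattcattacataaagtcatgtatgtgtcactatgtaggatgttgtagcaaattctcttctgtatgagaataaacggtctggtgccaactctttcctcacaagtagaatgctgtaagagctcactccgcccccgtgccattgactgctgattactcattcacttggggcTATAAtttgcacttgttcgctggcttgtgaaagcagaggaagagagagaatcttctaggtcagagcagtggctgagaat
Cyp1a1: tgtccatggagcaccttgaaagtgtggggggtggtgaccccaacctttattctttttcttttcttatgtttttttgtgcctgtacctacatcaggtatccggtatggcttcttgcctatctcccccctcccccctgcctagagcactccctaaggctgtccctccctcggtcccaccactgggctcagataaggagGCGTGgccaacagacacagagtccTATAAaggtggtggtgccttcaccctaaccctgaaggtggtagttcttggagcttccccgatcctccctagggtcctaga
On both strands, the core GCGTG was found 1 time in the Cyp1a1 window, starting 54 bases before the start site, and 0 times in the Akr1c18 window. Over all 32851 promoters of this length, 32.4% held it. The longer motif TNGCGTG, which contains the core, was in neither window and in 5.07% of all promoters. TATAA started 29 bases before the start site of Akr1c18 and 30 bases before that of Cyp1a1, and 24.9% of all promoters held it. These are matches of letters within 300 bases and say nothing about binding. Sequence farther upstream, where elements of either gene can lie, was not searched.

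The WT section held 40371 segmented cells and 3540184 panel transcripts with a quality score of at least 20, and 74.7% of these fell within a cell. For Utx-cKO the numbers were 52308 cells, 2875112 transcripts and 84.9%. Cells with at least 20 transcripts were kept, which left 33263 WT cells with a median of 62 transcripts and 37395 Utx-cKO cells with a median of 48. They were grouped into 16 clusters, 7 of them epithelial, and a cluster was named only where its leading genes held enough markers of a type. The other clusters are called by their leading genes. A named cluster can hold other cells too. The leading genes of blood endothelial cell-like cells also held Myh11 and Rgs5, markers of smooth muscle and pericytes, and the lymphatic markers Prox1 and Mmrn1. Those of basal keratinocyte-like cells also held Dct, a melanocyte marker, and Cd3e, a T cell marker. Of the cell identifiers, 2 occurred in both sections. Levels are in CPM, the counts of a gene in a group of cells divided by all panel counts of that group and scaled by 1e+06. The Y-linked Uty and Kdm5d, which females lack, were read at 16.7 to 25.0 CPM each. Kdm6a, the targeted gene, was at 2778 CPM in WT and 2229.6 CPM in Utx-cKO epithelium and at 2074 and 1350.2 CPM in sebocyte-like cells, so its transcripts were still read in the Utx-cKO section. Its sebocyte-like level was 2816 CPM in WT strip 3, the third of 4 pieces of skin in that section, against 1273 to 1463 CPM in the other WT strips and 537 to 1752 CPM in the Utx-cKO strips. The labels do not say which part of the transcript the probes read.

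Each section consisted of 4 separate strips of skin. The strips are pieces of 1 section and are not replicates, but they show how even a value is. WT strip 3 stood apart for Akr1c18 from every other strip, so most Akr1c18 comparisons that rest on it are given with and without it where both were computed.

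Akr1c18 was read most in sebocyte-like cells, the lipid-filled cells of the sebaceous gland, in both sections. Its level there was 9052 CPM in WT (1475 counts, 1392 cells) and 24722 CPM in Utx-cKO (7269 counts, 2781 cells). A fibroblast-like cluster led by Sfrp2 and Ptgs2 came next, at 7244 and 6385 CPM. In the Utx-cKO section the upper hair follicle-like cells, at 5346 CPM, and the basal keratinocyte-like cells, at 2934 CPM, followed, and the intervals of these first 4 did not overlap. In WT the same cells were at 1460 and 864 CPM, and from the third place on each cluster's interval overlapped that of the next. The lowest levels were 199 CPM in WT, in hair follicle stem cell and outer root sheath-like cells, and 340.0 CPM in Utx-cKO, in the cluster led by Krt1 and Krt77.

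**Figure D1:**
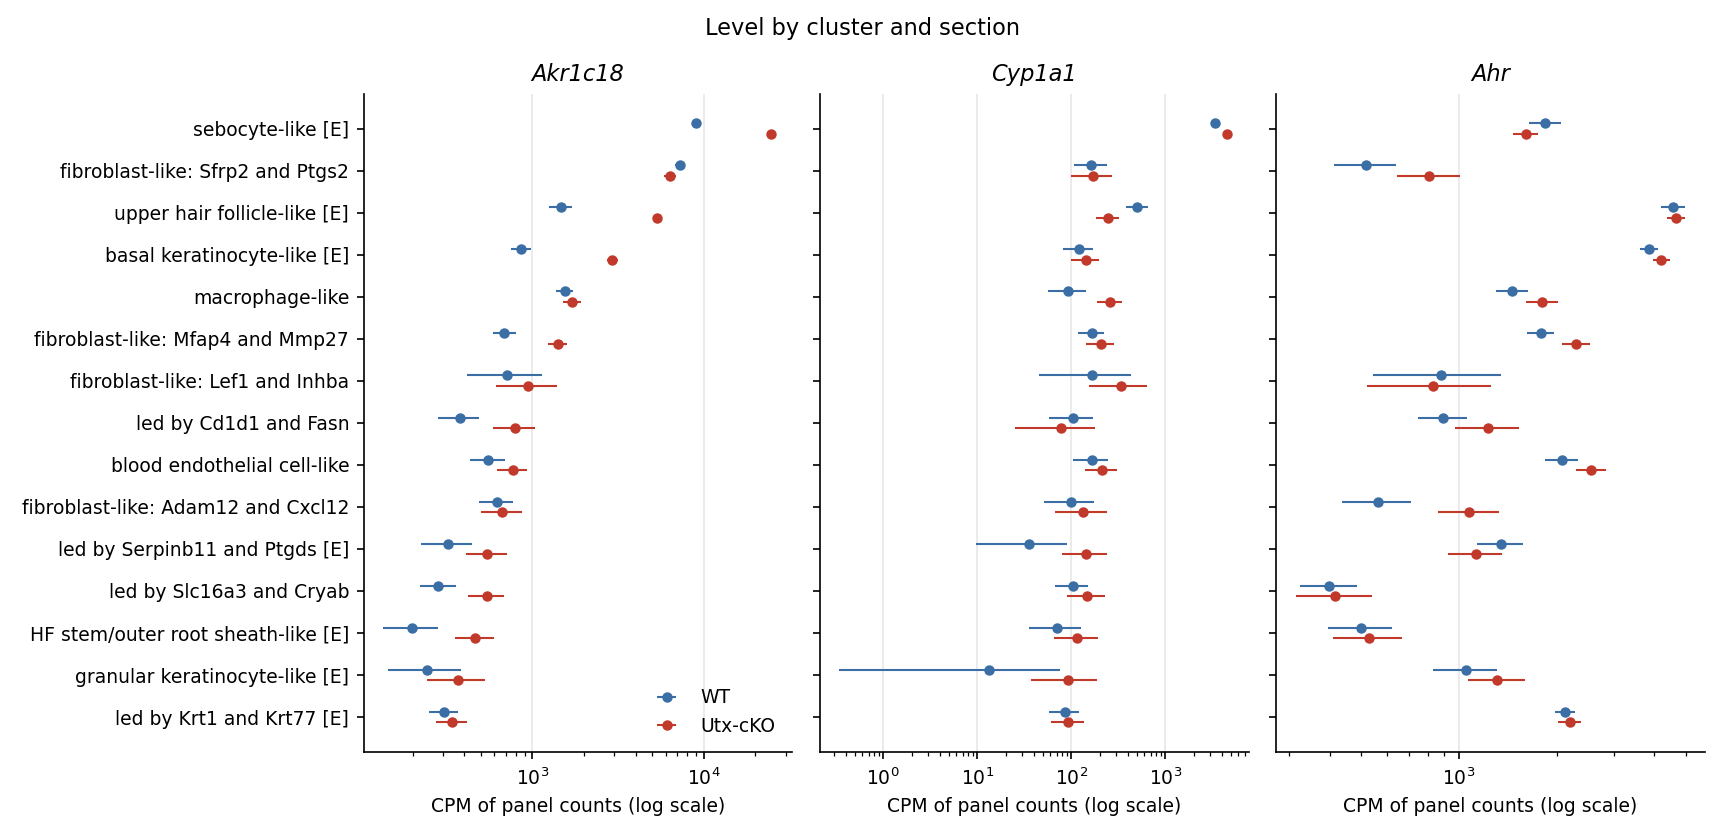
Level of Akr1c18, Cyp1a1 and Ahr in 15 of the 16 clusters, in CPM on a log axis, for the WT and the Utx-cKO section, with exact 95% Poisson intervals as bars; [E] marks epithelial clusters and HF stands for hair follicle. Akr1c18 and Cyp1a1 are highest in sebocyte-like cells (24722 and 4530 CPM in Utx-cKO), while Ahr is highest in upper hair follicle-like and basal keratinocyte-like cells (4666 and 4205 CPM).

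The named cells carried most of the transcripts of the gene. Sebocyte-like cells held 36.5% of the Akr1c18 counts of kept WT cells and 66.6% of those of Utx-cKO cells, and the Sfrp2 fibroblast-like cluster 28.7% and 5.84%. In WT, 39.4% of sebocyte-like cells had at least 1 Akr1c18 transcript (36.9% to 42.1%), against 73.3% in Utx-cKO (71.6% to 75.0%). After thinning every cell to 20 transcripts the shares were 17.2% and 37.6%, so the order did not turn on the higher median depth of the WT cells (101 against 91 transcripts). Granular keratinocyte-like cells, with median depths of 87 and 71 transcripts, had the gene in 2.34% and 2.95% of cells. A sebocyte-like cell held 1.06 Akr1c18 transcripts on average in WT and 2.61 in Utx-cKO, and 6.47% and 20.1% of them held at least 5.

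Over all epithelial cells Akr1c18 was at 1672 CPM in WT (2056 counts) and 7007 CPM in Utx-cKO (9334 counts). The log2 ratio of Utx-cKO over WT was 2.07 (1.998 to 2.14), or 4.19-fold, the highest of 439 genes compared, which is what the choice of the gene rests on. The next genes were Gsdmc at 1.97 and Rgs4 at 1.96. Of the 439 genes, 12.5% were at least 1.5-fold higher in Utx-cKO and 2.96% at least 1.5-fold lower. By strip, Akr1c18 was at 2633, 3757, 265 and 1824 CPM in WT epithelium and at 7099, 9654, 8401 and 2639.9 CPM in Utx-cKO epithelium. WT strip 3 was the low one and Utx-cKO strip 4 lay within the WT strips, so the groups overlapped. Leaving out WT strip 3 gave a ratio of 1.46 (1.39 to 1.53).

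Across the 16 clusters Akr1c18 was at least 1.5-fold higher in Utx-cKO in 10 and at least 1.5-fold lower in 0. Among all pairs of a gene and a cluster with at least 100 counts, 8.97% were that much higher and 6.85% that much lower. Of the 10 clusters, that led by Serpinb11 and Ptgds (36 and 53 counts) fell short of 100 counts. So did granular keratinocyte-like cells (18 and 28) and hair follicle stem cell and outer root sheath-like cells (31 and 60). Akr1c18 was chosen by its epithelial ratio, so its number of epithelial clusters supports nothing. The interval of the log2 ratio lay above 0 in 10 clusters, beside 23.5% of all pairs, and below 0 in 1, the Sfrp2 fibroblast-like cells, beside 20.9%. With WT strip 3 left out, Akr1c18 was at least 1.5-fold higher in 8 clusters and lower in 0, beside 12.2% and 5.92% of pairs, and its interval lay above 0 in 9 and below 0 in 0, beside 24.7% and 20.4%. Of the 8, those led by Lef1 and Inhba (6 and 25 counts) and by Cd1d1 and Fasn (32 and 51) fell short of 100 counts. So did hair follicle stem cell and outer root sheath-like cells (19 and 60). Within single clusters the share of genes at least 1.5-fold higher was 18.4% of 304 genes in upper hair follicle-like cells, 10.1% of 357 in basal keratinocyte-like cells, 4.62% of 260 in sebocyte-like cells and 6.69% of 239 in the Sfrp2 fibroblast-like cells.

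**Figure D2:**
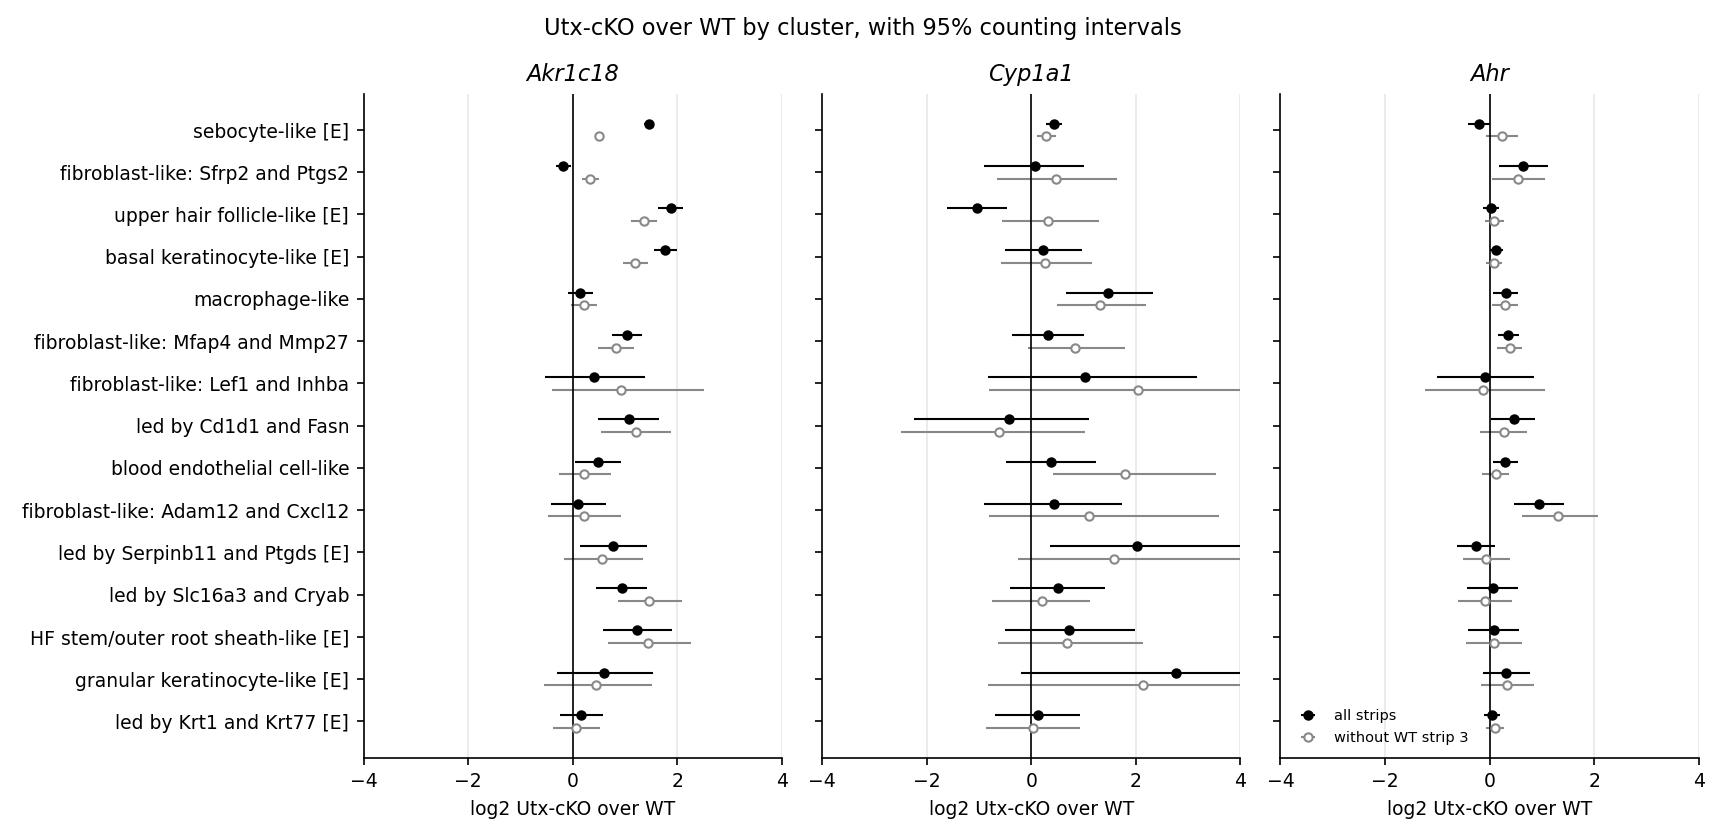
Log2 ratio of Utx-cKO over WT for each gene in 15 of the 16 clusters, with exact 95% intervals as bars, cut at the ends of the axis; open marks leave out WT strip 3, [E] marks epithelial clusters and HF stands for hair follicle. The sebocyte-like ratio of Akr1c18 is 1.45 with all strips and 0.51 without WT strip 3, and the ratio of the Sfrp2 fibroblast-like cells is -0.18 and then 0.34.

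In sebocyte-like cells the Akr1c18 level by strip was 16559, 22573, 215 and 14112 CPM in WT. In the Utx-cKO strips it was 35147, 38060.3, 23574 and 8735 CPM. The groups overlapped on both sides: WT strip 3 was far below all other strips, and Utx-cKO strip 4 was below WT strips 1, 2 and 4. The share of sebocyte-like cells with an Akr1c18 transcript was 69.7%, 59.7%, 3.13% and 56.2% in WT and 79.2%, 84.0%, 80.5% and 45.2% in Utx-cKO. It was lowest in the same strips as the level, WT strip 3 and Utx-cKO strip 4, while the order of the other strips differed in part. The log2 ratio in sebocyte-like cells was 1.45 (1.37 to 1.53) over all strips and 0.51 (0.42 to 0.59) without WT strip 3. Left out in turn, Utx-cKO strip 4 gave 1.65.

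WT strip 3 had the most sebocyte-like cells of the WT strips, 543, and 17 of them held Akr1c18, with 17 counts among 79186 transcripts (215 CPM, 125 to 344). Its sebocyte-like cells read the sebocyte genes too, some of them lower than in any other strip. Markers of sebocytes made up 15.9% of their transcripts, against 16.9% to 22.5% in the other WT strips and 19.7% to 26.0% in the Utx-cKO strips. Scd1, a sebocyte marker, was at 54883 CPM, against 60139.5 to 117850 CPM in the other WT strips. Elovl3, a fatty acid elongase of sebaceous glands, was at 7931 CPM, within the 4911 to 10949.6 CPM of the other WT strips, and the lipid droplet gene Cidea was at 13259.9 CPM, against 13784 to 19256 CPM in the others. Of 260 genes compared in these cells, Akr1c18 was the only one at least 10-fold below the lowest of the other WT strips, 0.385% of the genes, and it was 65.7-fold below. The next, Il33, was 6.11-fold below; it was named after its value was seen. At the 1.5-fold mark 6.15% of the genes lay below and 12.3% above the other WT strips. A gap of 10-fold in 1 strip was also seen for Fcer1g and Sc5d in WT strip 4 and for Sc5d in Utx-cKO strip 4, each within its own section.

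WT strip 3 was the lowest WT strip for Akr1c18 in upper hair follicle-like and basal keratinocyte-like cells too, at 453 and 252 CPM. In the Sfrp2 fibroblast-like cells it was instead the highest, at 11518 CPM against 4425, 4674 and 8175 CPM in WT strips 1, 2 and 4. Cyp1a1 in sebocyte-like cells was at 2980.3 CPM in strip 3, within the 2644 to 4295 CPM of the others. Ahr was at 2349 CPM there, above the 1234 to 1714 CPM of the other WT strips. The labels do not say whether the strips come from 1 animal or several, and what sets strip 3 apart was not tested.

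**Figure D3:**
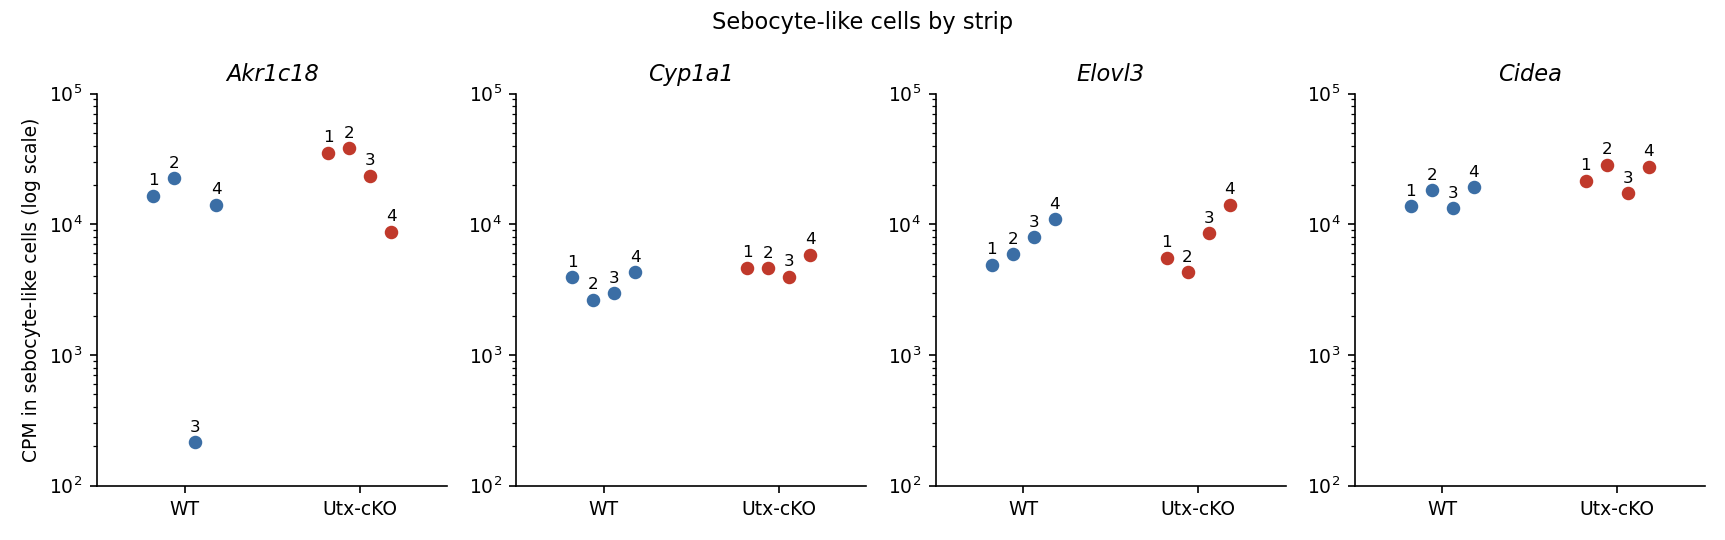
Levels of Akr1c18, Cyp1a1 and the sebocyte genes Elovl3 and Cidea in sebocyte-like cells, in CPM on log axes; each point is 1 strip of the WT or the Utx-cKO section, with its number. WT strip 3 lies at 215 CPM for Akr1c18, while the other 7 strips lie between 8735 and 38060.3 CPM, and for Cyp1a1, Elovl3 and Cidea WT strip 3 lies at 2980.3, 7931 and 13259.9 CPM, the last the lowest of the 8 strips.

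**Figure D4:**
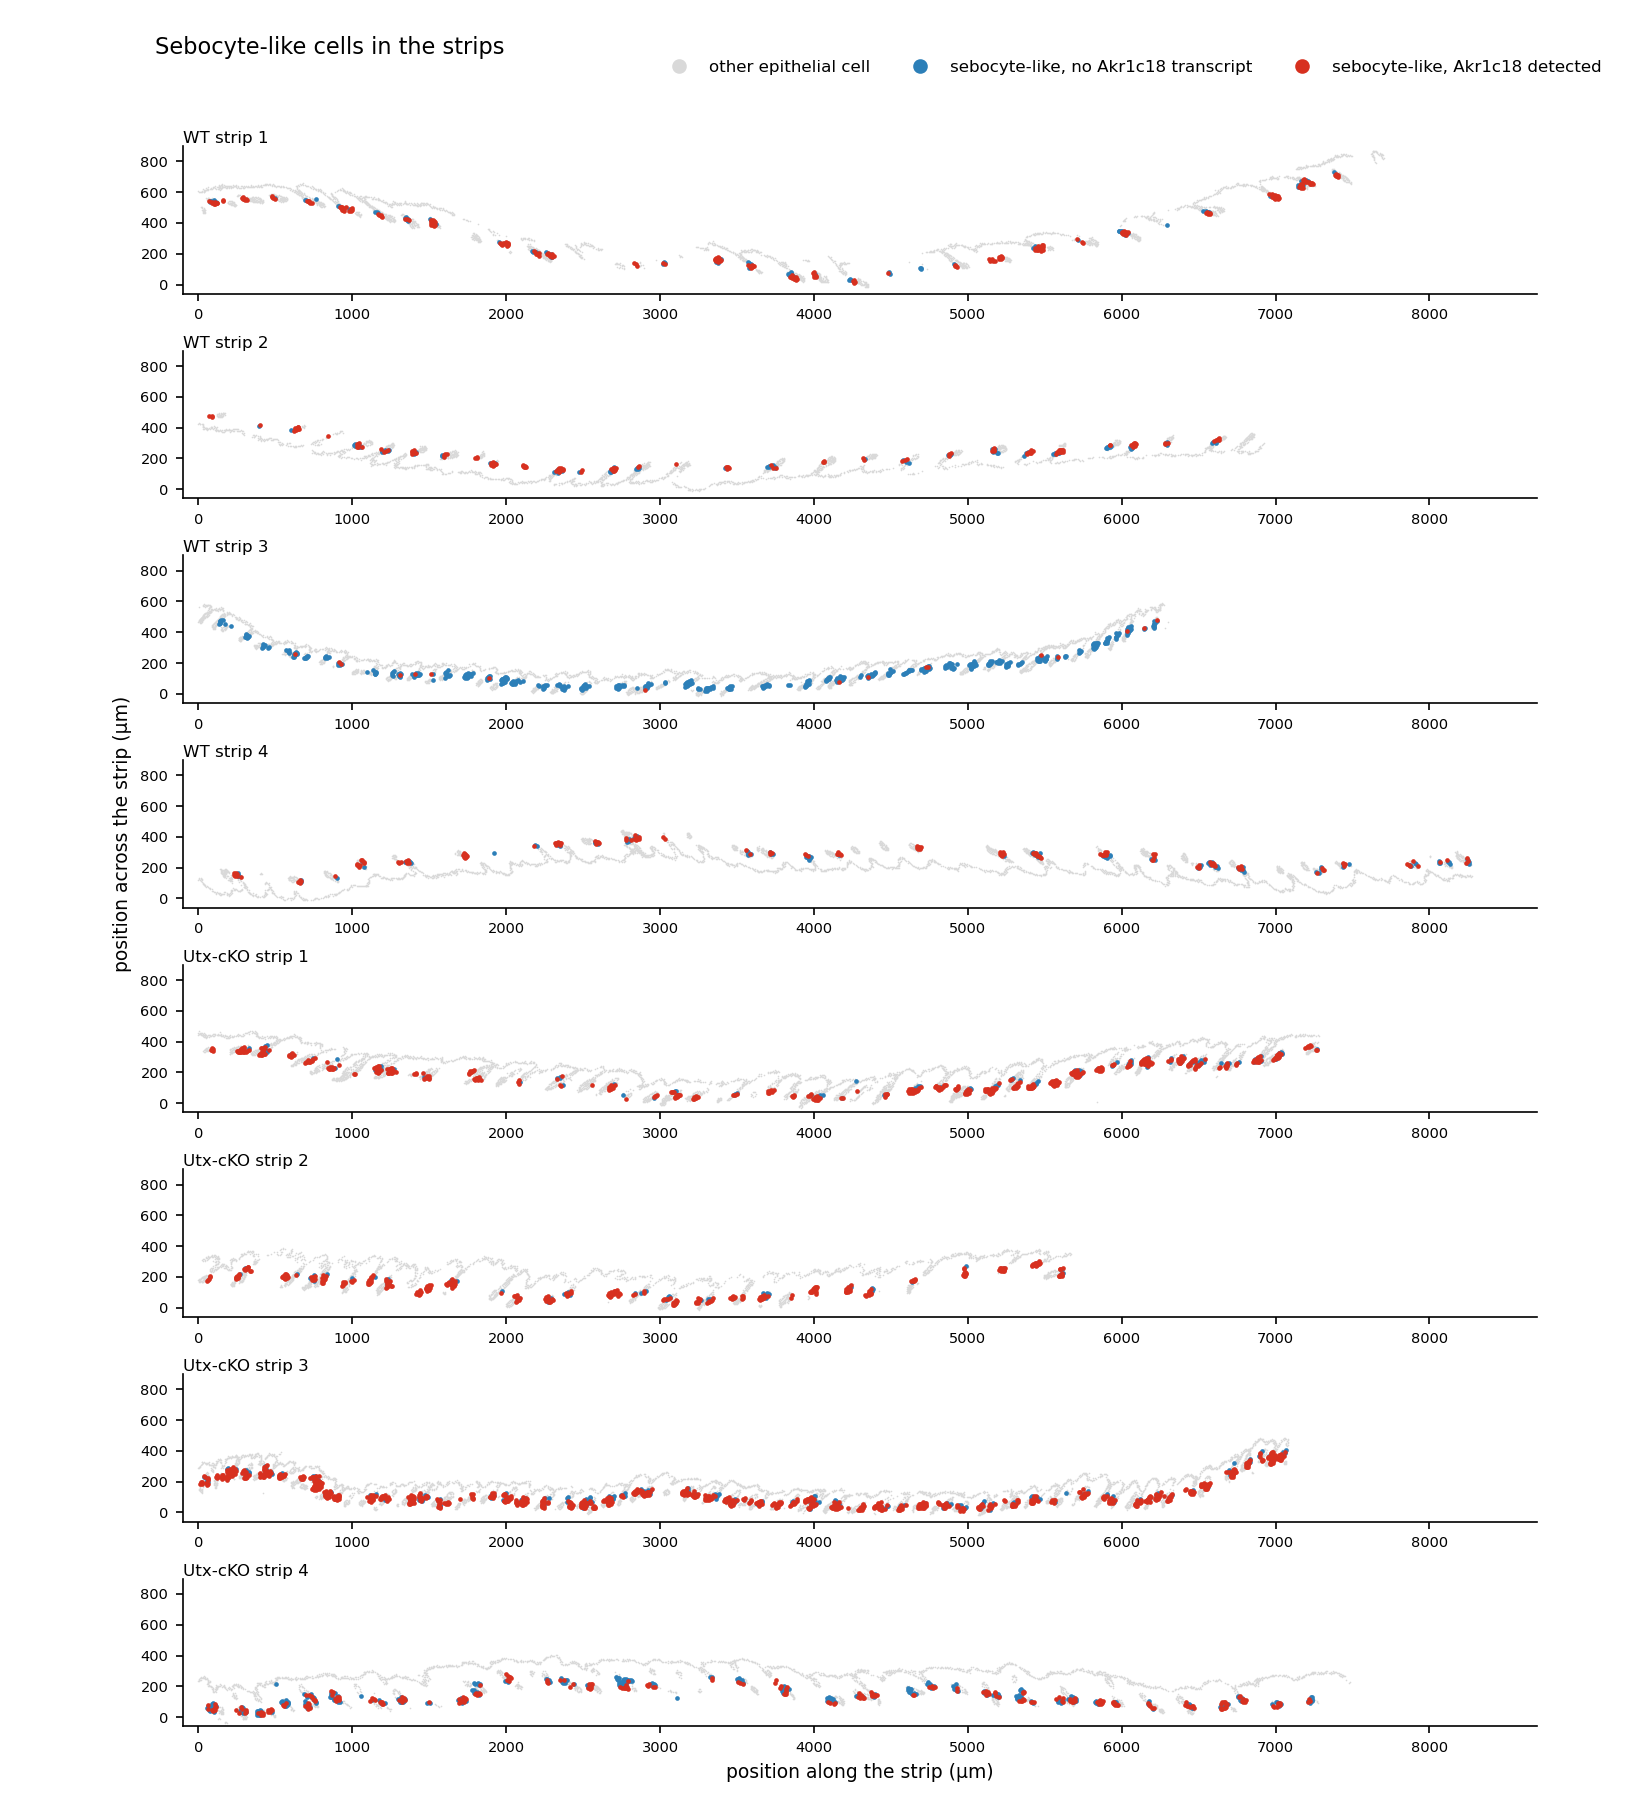
Positions in µm of sebocyte-like cells along each of the 8 strips, coloured by whether an Akr1c18 transcript was read, with the other epithelial cells in grey; a stray point of WT strip 1 lies outside its frame. The cells without the gene in WT strip 3 run along the whole strip, where 3.13% of sebocyte-like cells held it, against 45.2% to 84.0% in the other strips.

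Finer clustering split most sebocyte-like cells into 2 subsets. In the subset led by Psat1 and Cers4, with 22.1% and 24.9542% sebocyte-marker transcripts, Akr1c18 was at 13829 CPM in WT and 32998 CPM in Utx-cKO. In the subset led by Crct1 and Sprr1a, with 12.5% and 15.9%, it was at 3981 and 13306 CPM. The log2 ratios were 1.25 (1.16 to 1.35) and 1.74 (1.57 to 1.92), and 0.47 (0.38 to 0.56) and 0.63 (0.45 to 0.81) without WT strip 3. The gene was therefore read more in the subset richer in lipid genes in both sections, and the ratio between sections had the same sign in both subsets.

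Outside the gland, upper hair follicle-like cells gave an Akr1c18 ratio of 1.87 (1.64 to 2.12), from 1460 CPM in WT (168 counts) to 5346 CPM in Utx-cKO (1086 counts). The WT strips were at 1661, 1342, 453 and 3149 CPM and the Utx-cKO strips at 5394, 6385, 5353 and 4629.9 CPM. Here every Utx-cKO strip lay above every WT strip, as it did for 3.29% of the 304 genes. The ratio was 1.36 (1.11 to 1.61) when WT strip 3 was left out. Basal keratinocyte-like cells gave 1.76 (1.54 to 1.99) with all strips and 1.198 (0.97 to 1.43) without WT strip 3. Their WT strips were at 897, 1308, 252 and 1802 CPM and their Utx-cKO strips at 2776, 3265, 3871 and 952 CPM, which overlapped through Utx-cKO strip 4.

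These levels differed with the distance of the cells from the gland. Epithelial cells other than sebocyte-like ones, with centres within 20 µm of a sebocyte-like cell, had Akr1c18 at 1641 CPM in WT and 6792 CPM in Utx-cKO. The log2 ratio there was 2.05 (1.83 to 2.27). From 20 to 50 µm the levels were 530.1 and 2008 CPM (1.92), and from 50 to 100 µm they were 314 and 812 CPM (1.37). From 100 to 200 µm they were 438 and 445 CPM, with a ratio of 0.02 (-0.37 to 0.42). Leaving out WT strip 3, the 4 ratios were 1.27, 1.25, 1.13 and -0.02. The difference between the sections was thus seen in epithelium up to 100 µm from sebocyte-like cells, and beyond that the interval held 0. It was not confined to epithelium. Non-epithelial cells within 20 µm were at 1147 and 3760 CPM, a ratio of 1.71 (1.37 to 2.07). Farther out their ratio was 0.81 (20 to 50 µm), 0.23 (50 to 100 µm), -0.42 (100 to 200 µm) and 0.63 (beyond 200 µm). For these cells the ratios by distance were not computed without WT strip 3, and the part of transcripts from neighbouring cells was not tested.

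**Figure D5:**
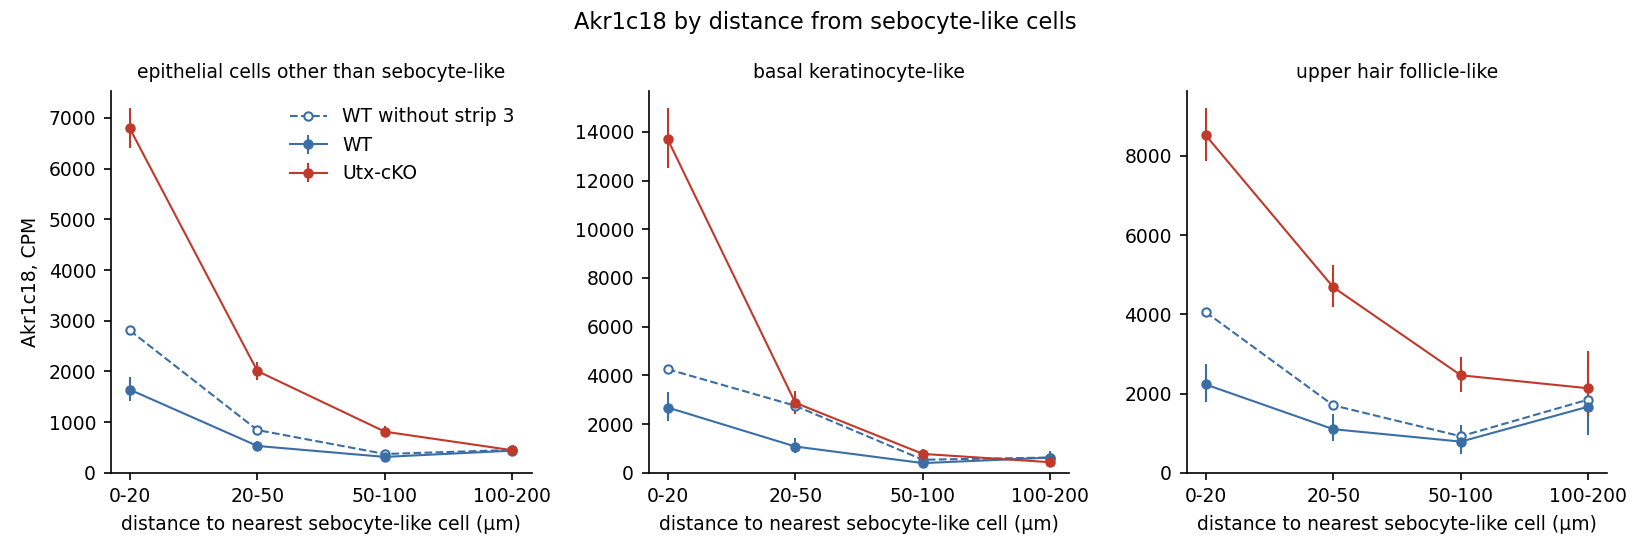
Level of Akr1c18 in CPM, with exact 95% Poisson intervals as bars, by distance in µm to the nearest sebocyte-like cell, for all epithelial cells that are not sebocyte-like and for 2 clusters of them; dashed lines with open marks and no bars show WT without strip 3. In the epithelium the levels are 1641 and 6792 CPM within 20 µm and 438 and 445 CPM from 100 to 200 µm.

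Basal keratinocyte-like cells within 20 µm of a sebocyte-like cell had the highest levels of these, 2681 CPM in WT (85 counts, 459 cells) and 13688 CPM in Utx-cKO (486 counts, 579 cells), a ratio of 2.35 (2.02 to 2.70). Without WT strip 3 the ratio was 1.69 (1.35 to 2.04). They read Krt5, a basal keratin, at 42672 and 46754 CPM, against 70336 and 71965 CPM in basal cells at 100 µm or more. Sebocyte genes were higher near the gland too. Cidea was at 788 and 1098 CPM within 20 µm and at 174 and 106 CPM at 100 µm or more, and Elovl3 at 252 and 451 CPM against 52.3 and 106 CPM. The part of transcripts from neighbouring sebocytes in these Akr1c18 levels was not tested. All listed sebocyte markers made up 1.19% and 1.45% of their transcripts, against 1.30% and 1.06% at 100 µm or more and 17.4% and 21.1% in sebocyte-like cells. That list holds Acsl1, Dbi and Fads2, which were lower in sebocyte-like cells than in the rest. For every 100 sebocyte-marker transcripts, the basal cells within 20 µm held 22.6 Akr1c18 transcripts in WT and 94.4 in Utx-cKO. Sebocyte-like cells held 5.21 and 11.7. Without WT strip 3 the WT basal value was 35.8, and the sebocyte-like value was not computed without that strip. From 20 to 50 µm the basal ratio was 1.41 with all strips and 0.06 (-0.43 to 0.58) without WT strip 3. At 100 µm or more the basal level was 628 CPM in WT and 438 CPM in Utx-cKO.

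Basal keratinocyte-like cells with an Akr1c18 transcript held proliferation markers more often in Utx-cKO. At least 1 of 5 such markers was read in 48.8% of them in Utx-cKO (44.0% to 53.7%) and in 29.0% of the other basal cells (27.6% to 30.4%). Set against the number expected from cells of the same section, cluster and depth, this was 1.49 times as many (1.30 to 1.71), and in WT 1.26 times (0.9987 to 1.57). Within 20 µm of sebocyte-like cells the Utx-cKO value was 1.11 (0.92 to 1.32) and beyond it was 1.44 (1.15 to 1.77). The WT values were 1.13 (0.78 to 1.59) and 1.20 (0.88 to 1.60), and all WT intervals held 1. Over all cells and sections, the genes most often read with Akr1c18 by this measure were the mitotic genes Ube2c at 1.44 and Cenpf at 1.40, then Nos2 at 1.35, Sprr2i at 1.32 and Sfrp2 at 1.31.

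The Sfrp2 fibroblast-like cells, led by genes of the dermis and fascia, had an Akr1c18 ratio of -0.18 (-0.32 to -0.04), over 2049 WT and 1920.0 Utx-cKO cells. Their strips were at 4425, 4674, 11518 and 8175 CPM in WT and 4696, 7624, 8219 and 5370.4 CPM in Utx-cKO, which overlapped throughout. With WT strip 3 left out the ratio was 0.34 (0.17 to 0.51). The share of these cells with the gene was 32.3% and 21.9%, and 11.6% and 10.2% after thinning to 20 transcripts. Over all non-epithelial cells the level was 1485 and 1672 CPM, a ratio of 0.17 (0.08 to 0.27), or 0.41 (0.30 to 0.52) without WT strip 3, beside 22.4% of 450 genes at least 1.5-fold higher in Utx-cKO and 2% lower.

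Many Akr1c18 transcripts of the WT section were read outside cells. Of 6121 that passed the quality score, 68.5% lay in cells, against 91.2% of 12486 in Utx-cKO. Of the 1928 WT transcripts outside cells, 58.7% were nearest to an Sfrp2 fibroblast-like cell and 50.5% lay in strip 3. Counted over all transcripts of a section, in or out of cells, the Akr1c18 level of Utx-cKO was 2.51-fold that of WT (log2 ratio 1.33, 1.28 to 1.37).

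Cyp1a1 was a gene of the sebaceous gland in these sections. It was at 3351 CPM in WT sebocyte-like cells (546 counts) and at 4530.2 CPM in Utx-cKO ones (1332 counts), which held 63.9% and 79.8% of its counts in kept cells. Upper hair follicle-like cells came next in WT at 504 CPM, and every other cluster of either section lay between 13.5 and 340 CPM with intervals that overlapped those of its neighbours. Of sebocyte-like cells, 23.4% in WT (21.2% to 25.7%) and 29.2% in Utx-cKO (27.5% to 30.9%) held a Cyp1a1 transcript, and 4.97% and 6.82% after thinning. Granular keratinocyte-like cells held one in 0.138% and 0.766%.

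Over all epithelial cells Cyp1a1 was at 554 and 1111 CPM, a log2 ratio of 1.00 (0.87 to 1.14), or 1.17 (1.00 to 1.34) without WT strip 3. The WT strips were at 565, 496, 650 and 415 CPM and the Utx-cKO strips at 794, 1055, 1263 and 1287 CPM. The lowest Utx-cKO strip was above the highest WT strip, which held for 3.64% of the 439 genes. Sebocyte-like cells made up 10.8%, 12.5%, 19.2% and 15.7% of the epithelial cells in the Utx-cKO strips, against 10.5%, 8.58%, 12.4% and 6.49% in WT. WT strip 3 lay above Utx-cKO strip 1, so the groups overlapped. With every cluster given the same weight in both sections the epithelial ratio was 0.31.

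Within sebocyte-like cells the Cyp1a1 ratio was 0.44 (0.29 to 0.58), or 1.35-fold, and 0.29 (0.11 to 0.47) without WT strip 3. Cyp1a1 was at 3914, 2644, 2980.3 and 4295 CPM in the WT strips and at 4635, 4609, 3968 and 5853 CPM in the Utx-cKO strips. WT strip 4 lay above Utx-cKO strip 3, so the groups overlapped. In the subset led by Psat1 and Cers4 the ratio was 0.70 (0.49 to 0.92), from 2852 and 4639 CPM, and 0.43 (0.18 to 0.68) without WT strip 3. In that led by Crct1 and Sprr1a it was 0.17 (-0.03 to 0.38), from 3892 and 4381 CPM.

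Upper hair follicle-like cells gave a Cyp1a1 ratio of -1.03 (-1.61 to -0.46), from 58 and 50 counts. Among 304 genes there, 9.87% were at least 1.5-fold lower in Utx-cKO. The WT strips were at 208, 168, 997 and 207 CPM and the Utx-cKO strips at 238, 179, 266 and 259 CPM. WT strip 3 alone was high, and without it the ratio was 0.32 (-0.56 to 1.29). In macrophage-like cells Cyp1a1 was at 93.0 and 257 CPM, a ratio of 1.47 (0.66 to 2.33) from 19 and 43 counts. In the same cells the Y-linked Uty and Kdm5d together, background in females, went from 19.6 to 65.9 CPM, and over all cells the median of 20 negative probes went from 1.89 to 3.89 CPM. The part of background in this low-count ratio was not tested. Over all non-epithelial cells Cyp1a1 was at 129.9 and 200.1 CPM, a ratio of 0.62 (0.32 to 0.93), or 0.86 (0.50 to 1.24) without WT strip 3.

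Ahr was spread over more kinds of cells than the enzymes. Its highest levels were in upper hair follicle-like cells, at 4572 CPM in WT and 4666 CPM in Utx-cKO, and in basal keratinocyte-like cells, at 3845 and 4205 CPM. In Utx-cKO the intervals of these 2 clusters overlapped. The blood endothelial cell-like cluster, whose leading genes also held mural and lymphatic markers, was at 2070.0 and 2552 CPM. The cluster led by Krt1 and Krt77 was at 2120.1 and 2194 CPM. Sebocyte-like cells, where both enzymes were highest, were at 1841 and 1605 CPM. Hair follicle stem cell and outer root sheath-like cells were at 499 and 527 CPM and the cluster led by Slc16a3 and Cryab lowest at 398 and 415 CPM.

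Over all epithelial cells the Ahr ratio was 0.12 (0.05 to 0.19), from 2864 and 3375 counts. The WT strips were at 1909, 2129.7, 2514 and 2599 CPM and the Utx-cKO strips at 1888, 2526, 3065 and 2416 CPM, which overlapped on both sides. Without WT strip 3 it was 0.19 (0.11 to 0.28). The upper hair follicle-like cells gave 0.03 (-0.13 to 0.19), and for the basal keratinocyte-like cells it was 0.13 (0.0028 to 0.26). Sebocyte-like cells gave -0.20 (-0.41 to 0.02) with all strips and 0.24 (-0.06 to 0.55) without WT strip 3, where Ahr was highest. Of the 16 clusters, 2 had Ahr at least 1.5-fold higher in Utx-cKO, beside 8.97% of all pairs of a gene and a cluster. Both were fibroblast-like: that led by Adam12 and Cxcl12, from 561 to 1076 CPM (0.94, 0.47 to 1.42), and that led by Sfrp2 and Ptgs2, from 517 to 811 CPM (0.65, 0.19 to 1.11). They rest on 68 and 89 counts and on 83 and 81 counts. From mean counts per cell the log2 ratios were 0.53 and 0.06, and the strips of the groups overlapped in both clusters. With WT strip 3 left out the ratios of CPM were 1.32 (0.62 to 2.08) and 0.54 (0.04 to 1.05), the second below 1.5-fold, so 1 cluster was left. In the first, 6.22% of 209 genes were at least 1.5-fold higher. Over all non-epithelial cells the ratio was 0.51 (0.41 to 0.61), where the median of all genes was 0.22.

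T cells live among the keratinocytes of the epidermis, and a segmented cell can hold transcripts of both. Epithelial cells with at least 2 transcripts of Cd3 genes, 375 in WT and 181 in Utx-cKO, had Ahr at 4029 and 3593 CPM, from 156 and 57 counts (3421 to 4713 and 2722 to 4655 CPM). Such cells among the non-epithelial ones were at 1191 and 1152 CPM. In basal keratinocyte-like cells with no Cd3 transcript Ahr was at 3683 and 4173 CPM, close to the level of the whole cluster, and in such upper hair follicle-like cells at 4540.3 and 4647 CPM. In WT the level in the epithelial cells with Cd3 was above that of the basal and below that of the upper hair follicle-like cells without it. In Utx-cKO it was below both. Its interval held both levels in each section, and which cell carried the Ahr transcripts was not tested. Among transcripts in cells, 63.4% of Ahr in WT and 65.0% in Utx-cKO lay over the nucleus, against 46.0% and 48.8% of all panel transcripts.

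Over the 32 points given by 16 clusters in 2 sections, the genes whose log levels were most like those of Cyp1a1 were Elovl3 (r = 0.89), Cidea (0.85), Cers5 (0.83), Lpcat3 (0.82) and Ear6 (0.82). Those most like Akr1c18 were Ear6 (0.84), Elovl3 (0.80), Cyp1a1 (0.76), Acsl4 (0.75) and Cidea (0.75). Ahr was most like Cd3e (0.83), Cd3g (0.81), Pkib (0.76), Lck (0.75) and Prelid1 (0.74), and its r was 0.29 with Akr1c18 and 0.27 with Cyp1a1. The points share sections, and the clusters were made from the same cells, so these values only describe the pattern.

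Co-detection of Ahr with the enzymes was set against the number of cells expected if both were read independently among cells of the same section, cluster and depth (4 bins). Ahr and Akr1c18 were read together in 257 WT cells, against 288 expected, a ratio of 0.89 (0.79 to 1.01). In Utx-cKO they were together in 745 cells, against 688, a ratio of 1.08 (1.01 to 1.16). Ahr and Cyp1a1 were together in 114 WT cells, against 112, a ratio of 1.02 (0.84 to 1.23), and in 165 Utx-cKO cells, against 184, a ratio of 0.90 (0.77 to 1.04). With WT strip 3 left out the WT ratios were 0.99 (0.85 to 1.13) and 1.22 (0.92 to 1.58). Over both sections Ahr ranked 262 of 470 genes as a partner of Akr1c18 and 289 of 470 as a partner of Cyp1a1. The median ratios over all genes were 1.03 and 0.98.

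By cluster the values for Ahr with Akr1c18 went apart. In WT sebocyte-like cells the ratio was 0.73 (0.57 to 0.92): Ahr was read in 12.6% of the cells with Akr1c18 and 20.3% of the others. With WT strip 3 left out, where Akr1c18 was lowest and Ahr highest, the shares were 11.8% and 12.9% and the ratio 0.92 (0.71 to 1.18). In Utx-cKO sebocyte-like cells it was 1.03 (0.92 to 1.15). In Utx-cKO basal keratinocyte-like cells it was 1.60 (1.35 to 1.89), with Ahr in 33.6% of the cells with Akr1c18 and 18.02% of the others. This was so within 20 µm of sebocyte-like cells, at 1.35 (1.07 to 1.67), and beyond, at 1.51 (1.15 to 1.95). In WT basal cells the ratio was 1.19 (0.88 to 1.58), with 0.60 (0.27 to 1.13) within 20 µm and 1.52 (1.08 to 2.08) beyond. Over all WT basal cells without strip 3 the ratio was 1.20 (0.86 to 1.64). In upper hair follicle-like cells of WT and Utx-cKO it was 1.15 and 1.02, and the WT one was 1.16 (0.79 to 1.65) without strip 3. For Ahr with Cyp1a1 in sebocyte-like cells it was 0.97 in WT and 0.83 (0.69 to 0.998) in Utx-cKO.

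The enzymes themselves were read together in 171 WT and 666 Utx-cKO cells, which was 3.82 and 4.66 times the number expected over all cells. Within section, cluster and depth the ratios were 1.19 (1.02 to 1.38) and 0.998 (0.92 to 1.08), and the WT one was 1.02 (0.87 to 1.19) with strip 3 left out. In sebocyte-like cells they were 1.14 (0.96 to 1.34) and 0.98 (0.91 to 1.06), and the WT one was 0.95 (0.80 to 1.13) with strip 3 left out.

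Other genes of the pathways were few on the panel. Of 35 listed partners and targets of AHR 7 were present, and in epithelium 1 was at least 1.5-fold higher in Utx-cKO, Ido1, an enzyme of tryptophan breakdown, at 0.61 (0.26 to 0.98), and 0 were lower, beside 12.5% and 2.96% of all 439 genes. Their median log2 ratio was -0.0096, against 0.12 over all 439 genes. Nfe2l2, which encodes the oxidative stress factor NRF2, and Gclc, an enzyme of glutathione synthesis, were at -0.23 and -0.27. Slc7a11 and Ereg were at 0.46 (0.22 to 0.70) and 0.30 (0.11 to 0.49), and Serpinb2 and Ovol1 at -0.0096 and -0.030. In non-epithelial cells 5 of the 7 were higher, Ido1 at 0.97, Ovol1 at 0.94, Slc7a11 at 0.91, Serpinb2 at 0.86 and Ereg at 0.74, beside 22.4% of all 450 genes. All 5 were low there, between 78.4 and 382 CPM, and the counts of the negative probes, 331 in WT and 561 in Utx-cKO, were also higher in Utx-cKO. The part of background was not tested.

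For steroid metabolism 2 genes were present. Cyp7b1, a hydroxylase of oxysterols, gave 0.89 (0.60 to 1.19) in epithelium, and Srd5a1, the steroid 5α-reductase, gave -0.56 (-0.76 to -0.35). Of 7 genes of the prostaglandin pathway, Ptger2, a receptor for prostaglandin E2, was higher at 0.63 (0.26 to 1.01), and Ptgds, a prostaglandin D synthase, was lower at -1.18 (-1.42 to -0.95). Of 2 other xenobiotic enzymes Aldh1a3, a retinaldehyde dehydrogenase, was higher at 0.69 (0.46 to 0.93), while Dhrs9 was at 0.31. Of all 439 genes in epithelium, 12.5% were at least 1.5-fold higher and 2.96% lower. In non-epithelial cells Cyp7b1 gave 0.79, Srd5a1 0.60 and Ptgs2 of the prostaglandin list -1.04. There, 22.4% of 450 genes were at least 1.5-fold higher and 2% lower.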

How the data were processed

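Per the labels' protocols, sections of fixed skin were probed in situ with a custom panel of 480 genes and negative control probes. The deposited tables give, for every decoded transcript, a position, a cell and a quality score, with a highest value of 40, and, for every cell, a count of transcripts. The labels name no decoding or segmentation software. Transcripts with a score of at least 20 were summed per cell, and these sums matched the deposited counts of all 40371 WT and 52308 Utx-cKO cells. Cells with at least 20 transcripts were clustered with scanpy 1.11.5 (30 principal components, 15 neighbours, Leiden at resolution 1) in Python 3.11.15. Doublets were not called. Clusters whose transcripts were at least 10% keratinocyte markers were called epithelial. The lowest of them had 17.5% and the highest other cluster 4.94%. Counts were summed per section, cluster and strip. Levels have exact Poisson intervals, ratios conditional binomial and shares Clopper-Pearson intervals (SciPy 1.17.1, 95%). Genes with at least 200 counts (100 within a cluster) were compared at a fold of 1.5. On simulated Poisson counts for 439 genes with 200 of them changed 2-fold, 99.5% of the changed genes were called. The simulation held counting error alone and no variation between strips or sections, so it says nothing about how far such variation moves the calls. The genes named beside the members follow set lists and the 5 most alike. The members and all lists were chosen with earlier results of these data known. The levels of 1 of the 16 clusters are not reported here by themselves.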

Additional observations from a re-analysis of the deposited data

Results flagged for a closer look

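The Akr1c18 ratio of Utx-cKO over WT had opposite signs in kinds of cells that both read the gene. It was 1.87 on the log2 scale in upper hair follicle-like cells and -0.18 in the fibroblast-like cells led by Sfrp2 and Ptgs2, and the intervals lay on opposite sides of 0. The difference was not tested. Without WT strip 3 both were positive, at 1.36 and 0.34.

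Cyp1a1 likewise gave 0.44 in sebocyte-like cells and -1.03 in upper hair follicle-like cells, and this difference was not tested either. Without WT strip 3 the values were 0.29 and 0.32.

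Akr1c18 transcripts outside segmented cells were left out of every level by kind of cell. They numbered 1928 in WT and 1095 in Utx-cKO, or 2154 and 2529 CPM among all panel transcripts outside cells.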

How the results depend on the processing

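The 10 results, each under the alternatives that apply to it, gave 146 values in all. Of these 100 stayed within the counting interval of the main value, 40 moved beyond it, and 6, all log2 ratios whose interval excluded 0, changed sign. A co-detection ratio whose interval held 1 could cross 1 and was not counted as changing sign, as for Ahr with Cyp1a1 in both sections. The settings that assign transcripts outside cells to the nearest kept cell, and the leaving out of strips for non-epithelial cells and co-detection, were chosen after seeing the data. Log2 ratios of Utx-cKO over WT follow. In epithelium Akr1c18 (2.07) was 1.89 at a score of at least 30, 1.97 over nuclei, 1.82 per cell, 1.94 centred on the median gene and 1.51 at equal cluster shares. Cyp1a1 (1.00) was 0.84 at that score, 0.75 per cell and 0.31 at equal shares. Ahr (0.12) was 0.048 at that score, -0.13 per cell, -0.0014 centred and 0.047 at equal shares. In non-epithelial cells Akr1c18 (0.17) was 0.068 at that score, 0.36 over nuclei, -0.32 per cell, -0.049 centred and -0.0021 with outside transcripts added. Cyp1a1 (0.62) was 0.13 per cell. Ahr (0.51) was 0.33 over nuclei, 0.016 per cell, 0.29 centred and 0.65 with outside transcripts added. Centring by construction lowers every ratio by 0.12 in epithelium and 0.22 outside it. The cause of the other moves was not tested.

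Leaving out each strip in turn gave 1.46 to 2.39 for Akr1c18, 0.87 to 1.17 for Cyp1a1 and -0.082 to 0.26 for Ahr in epithelium, the last below 0 without Utx-cKO strip 3. Outside it the ranges were 0.034 to 0.41, 0.17 to 0.88, with the lowest without WT strip 1, and 0.38 to 0.63. Co-detection of Ahr with Akr1c18 in Utx-cKO (1.08) was 1.42 with no strata and 1.18 by cluster alone. With Cyp1a1 it was 1.63 and 1.23 in WT (1.02) and 1.28 and 1.07 in Utx-cKO (0.90). Without each strip, Ahr with Akr1c18 ran from 0.87 to 0.99 in WT and 1.03 to 1.11 in Utx-cKO, and with Cyp1a1 from 0.95 to 1.22 and 0.88 to 0.997.

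No paired analysis was possible because each group is 1 section with no replicate number. Depth limits Cyp1a1 outside the gland: 1 and 7 counts in granular keratinocyte-like cells gave an interval from -0.19 to 8.26.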
